A study of Mus musculus with 16 samples.

Results

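Mitochondrial ribosomal proteins are encoded in the nucleus, made in the cytosol and imported into mitochondria. There they assemble with 2 ribosomal RNAs of the mitochondrial genome into a large and a small subunit, which translate the few messenger RNAs that mitochondria keep, all for proteins of the respiratory chain and the ATP synthase. Their genes were taken as the protein-coding genes whose symbol starts with Mrpl or Mrps followed by a digit and whose level reached 1 FPKM in at least 4 of 16 libraries. FPKM gives fragments per kilobase of a gene's exons on a scale of sequencing depth. Of 78 genes with such a name 77 passed, among 11654 genes tested in all. They comprised 50 genes of the large subunit, 26 of the small subunit and Mrps36, which despite its name encodes an adaptor of the 2-oxoglutarate dehydrogenase complex and not a ribosomal protein. By origin, 47 have a counterpart in bacterial ribosomes and 29 are particular to the mitochondrial ribosome. Prefixes do not always give the subunit: the products of Mrps18a and Mrps30 sit in the large one.

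The libraries were made from bone marrow-derived macrophages of FVB/N mice, grown in L929-conditioned medium, a source of macrophage growth factor. Wild-type cells given DMSO as vehicle, wild-type cells given 100 nM dexamethasone for 24 h, FOXO3-/- cells given DMSO and FOXO3-/- cells given dexamethasone made up 4 groups of 4 libraries. Dexamethasone is a synthetic agonist of the glucocorticoid receptor, and FOXO3 is a forkhead transcription factor. Per its title, the study asked how FOXO3 affects glucocorticoid receptor signalling. The labels give neither the deleted stretch of Foxo3 nor the age of the mice, nor do they state whether replicates are separate animals or cultures. The p-values therefore refer to the spread among the libraries, part or all of which may be technical.

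The targeted gene, Foxo3, did not separate the genotypes. With vehicle it measured 24.7 ± 1.72 FPKM in wild type and 23.8 ± 0.635 FPKM in knockout (SD, n = 4, two-sided exact permutation p = 0.371), and 23.2 ± 1.07 and 24.5 ± 1.44 FPKM under dexamethasone (exact permutation p = 0.171), where 70 splits allow no p under 0.0286. A value over the whole gene does not check a partial deletion, so each genotype direction rests on the labels. All 7 receptor target genes used as a check rose with dexamethasone in both genotypes, with median log2 differences of 2.69 and 2.73. The FPKM were not scaled to each library's own reads on genes: these reads, recovered from the FPKM, stood at 1.06 to 1.24 times the implied scaling total in vehicle libraries and at 0.982 to 1.11 times in dexamethasone libraries. Limma voom on these reads, scaled to library totals, raised the median log2 difference of all genes with dexamethasone from -0.02 to 0.07 in wild type and from -0.05 to 0.12 in knockout, and members' values from both are given below where that changes a direction. Reads on genes numbered 16886745 to 20584573 per library, and a member rested on 70 to 2073 reads in a library, with a median of 431. The 10 macrophage markers summed to between 9889 and 15879 FPKM per library and none was at 0 throughout a group. Stromal markers, also 10, summed to between 2.87 and 1154 FPKM. Among them the collagen gene Col1a1 put 3 libraries apart from their groups: wild-type vehicle 3 at 6.77 FPKM, wild-type dexamethasone 4 at 19.1 FPKM and knockout vehicle 4 at 95.8 FPKM. Markers of neutrophils and B cells summed to at most 4.54 and 4.52 FPKM, and those of T and NK, erythroid, mast and dendritic cells to at most 1.25 FPKM.

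Promoters of the members are shown first because many genes of this family are described as targets of NRF1 and of ETS factors such as GABP. RefSeq (GRCm38.p6) gave 74 start-site windows for 68 members, each from 250 bases before to 50 after the start. Both strands were searched for 5 motifs. They were the NRF1 motif (GCGCA, then any base, then GCGC), the ETS motif (CCGGAAGT), the E-box (CACGTG), the YY1 motif, whose reverse complement is the run of capitals in Mrps11 below, and the glucocorticoid receptor motif (GNACA and TGTNC with 3 bases between them). The NRF1 letters stood in 13 windows (17.6%), against 4.6% of 32851 windows of all genes, and the ETS letters in 12 (16.2%, against 3.89%). YY1 letters stood in 5 (6.76%, against 0.852%) and the E-box in 7 (9.46%, against 7.15%). The windows of all genes cover 27025 genes with no filter on level. In 66 windows of cytosolic ribosomal protein genes the shares were 7.58% for NRF1, 16.7% for ETS, 6.06% for YY1 and 12.1% for the E-box. The ETS and YY1 shares of that family were thus near those of the members. The receptor letters were in 0 of 74 windows and in 0.475% of all. A match describes letters in a window and no bound factor. Below are 120 bases before to 10 after the start of 7 members whose values are described later. Capitals mark the motif: NRF1 in the first 4, ETS in the next 2 and YY1 in the last. In Mrps9, Mrpl30, Mrpl12, Mrpl52 and Mrps11 the match lies on the opposite strand, so the capitals are the reverse complement of the motif.
Mrps9, chr1:42851113-42851242, plus strand: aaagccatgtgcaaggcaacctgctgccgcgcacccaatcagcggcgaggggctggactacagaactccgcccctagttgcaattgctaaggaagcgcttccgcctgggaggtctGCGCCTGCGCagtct
Mrpl30, chr1:37890357-37890486, plus strand: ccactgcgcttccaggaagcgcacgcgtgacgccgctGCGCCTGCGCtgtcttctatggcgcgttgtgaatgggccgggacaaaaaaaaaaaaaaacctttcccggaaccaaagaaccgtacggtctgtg
Mrpl32, chr13:14613028-14613157, minus strand: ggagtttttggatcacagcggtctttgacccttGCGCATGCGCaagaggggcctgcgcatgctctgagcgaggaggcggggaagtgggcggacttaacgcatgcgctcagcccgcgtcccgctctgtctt
Mrpl12, chr11:120484517-120484646, plus strand: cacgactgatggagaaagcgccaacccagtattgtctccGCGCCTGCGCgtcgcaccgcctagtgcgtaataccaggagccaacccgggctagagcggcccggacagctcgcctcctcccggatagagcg
Mrpl27, chr11:94653671-94653800, plus strand: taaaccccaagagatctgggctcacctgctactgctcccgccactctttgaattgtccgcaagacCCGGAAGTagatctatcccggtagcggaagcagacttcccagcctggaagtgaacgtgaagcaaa
Mrpl52, chr14:54426789-54426918, plus strand: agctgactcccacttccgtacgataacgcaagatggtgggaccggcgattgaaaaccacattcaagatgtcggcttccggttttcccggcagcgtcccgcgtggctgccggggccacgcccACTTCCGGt
Mrps11, chr7:78783011-78783140, plus strand: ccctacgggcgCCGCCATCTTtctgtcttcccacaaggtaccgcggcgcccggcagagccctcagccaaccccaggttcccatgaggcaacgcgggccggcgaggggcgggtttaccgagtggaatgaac

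Members that fell with dexamethasone in either genotype on the authors' FPKM scale, described next, were set beside the others with no test. NRF1 letters stood in 4 of 29 windows of the former (13.8%) and in 9 of 45 windows of the latter (20%), and ETS letters in 5 (17.2%) and 7 (15.6%). Of 6 windows of members that fell in both genotypes 0 held the NRF1 letters and 2 the ETS letters. Mrps9, Mrpl30 and Mrpl32, the 3 members that rose with dexamethasone in knockout cells on the authors' scale, each carried the NRF1 letters. Of the 11 members that rose on library totals, described below, 10 had a window and 4 carried them. That observation was made after their values were seen and was not tested. NRF1 itself, encoded by Nrf1, stood at 2.61 ± 0.13 and 2.84 ± 0.171 FPKM in wild-type vehicle and dexamethasone libraries, and at 2.59 ± 0.21 and 2.39 ± 0.112 FPKM in knockout (SD, n = 4), with no call for dexamethasone in either genotype (limma adjusted p = 0.297 and 0.32) and a lower level in knockout under dexamethasone (log2 difference -0.18, limma adjusted p = 0.0409).

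Levels spread widely within the family. The highest mean over the 16 libraries was that of Mrpl28, of the large subunit, at 63.8 FPKM, followed by Mrps21, of the small subunit, at 48.3 FPKM and Mrpl34, of the large, at 43.1 FPKM. The lowest were Mrps10 at 2.12, Mrps35 at 2.04 and Mrpl47 at 1.18 FPKM. Levels between genes are per exon length. Mrpl47 lay just inside the filter, with 1 FPKM or more in 12 of 16 libraries, and Mrpl53, the gene outside it, was listed at 0 in all 16 libraries. Of the exon bases of Mrpl53 88% are shared with other annotated genes. Mrpl28 measured 62.2, 56.7, 52.5 and 57.8 FPKM in wild-type vehicle and 62.4, 50.9, 66 and 63.3 FPKM in wild-type dexamethasone libraries. Knockout libraries held 55.9, 78.2, 57.2 and 77.8 FPKM of it with vehicle and 73.6, 71.2, 68 and 67.3 FPKM with dexamethasone. Its groups overlapped except under dexamethasone, where every knockout library lay above every wild-type one (log2 difference 0.21 ± 0.11 SE, limma adjusted p = 0.175).

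In wild-type macrophages 18 of 77 members fell with dexamethasone and 0 rose on the authors' FPKM scale. With recovered reads scaled to library totals 10 were lower and 2 higher, as were 1581 and 2024 of 11650 genes. Unless recovered reads are named, calls come from limma on log2(FPKM + 1) over all 16 libraries, and those on library totals from limma voom, with p adjusted by Benjamini-Hochberg over all genes tested and a threshold of 0.05. The 18 make up 23.4% of members. Among all genes tested, 18.2% were called lower, 11.9% higher and 30.1% in either direction, so the share of members that fell was near the background and higher calls were absent. The differences were small, with log2 differences from -0.53 to -0.21 among the called members, or changes in mean FPKM from -33.0% to -14.3%. Called or not, 64 members (83.1%) lay below 0, against 52.7% of all genes, and the median difference was -0.16, against -0.02. On library totals it was -0.09, against 0.07. In 17 members (22.1%) every dexamethasone library lay under every vehicle library, as did 16.5% of all genes, and in 0 members every one lay above, against 10.8%. In a bulk sample, fewer cells of a type and less RNA per cell cannot be told apart.

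The steepest fall in wild type was that of Mrpl52 (chr14:54426909-54429756), a large-subunit protein without a bacterial counterpart. It measured 22.4, 26.3, 16.2 and 21.5 FPKM with vehicle and 14.5, 14.8, 15.8 and 12.7 FPKM with dexamethasone. The groups did not overlap, though vehicle library 3 came close (log2 difference -0.53 ± 0.13, limma adjusted p = 0.00541). Mrpl54 (chr10:81264713-81266934), another such protein of the large subunit, stood at 40.2, 36.7, 28.4 and 32.8 FPKM with vehicle. With dexamethasone it fell to 27.2, 21.5, 28.1 and 22.6 FPKM, each under the lowest vehicle library (-0.46 ± 0.12, limma adjusted p = 0.00903). Mrpl27, which in bacteria sits beside the peptidyl transferase centre, fell from 39.3, 36.4, 40.8 and 40.7 FPKM to 30, 22.8, 31.9 and 33.5 FPKM (-0.41 ± 0.11, limma adjusted p = 0.0102).

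Mrpl34, the third most abundant member, fell from 54.8, 51.9, 46.1 and 46.5 FPKM to 39.9, 34.9, 42 and 40.5 FPKM without overlap (-0.33 ± 0.08, limma adjusted p = 0.00528, the smallest among the members). Mrpl41, particular to mitochondria, measured 20.6, 19, 18.5 and 20.6 FPKM with vehicle and 15, 13.3, 16 and 14.7 FPKM with dexamethasone (-0.40 ± 0.10, limma adjusted p = 0.00596). Mrpl21, of the large subunit, measured 8.44, 7.63, 8.69 and 8.1 FPKM and then 6.65, 7.12, 6.09 and 6.05 FPKM (-0.30 ± 0.07, limma adjusted p = 0.00557). Neither pair of groups overlapped. Mrpl13, also of the large subunit, fell from 2.96, 3.25, 3.52 and 3.24 FPKM to 2.33, 2.44, 2.8 and 2.54 FPKM (-0.27 ± 0.06, limma adjusted p = 0.00598). Mrpl11, at the base of the stalk that recruits translation factors, fell from 10.4, 9.33, 9.3 and 9.19 FPKM to 6.66, 6.21, 9.08 and 6.82 FPKM (-0.38 ± 0.10, limma adjusted p = 0.0119). Dexamethasone library 3 stood above the other 3 of its group in Mrpl11 and close to the vehicle libraries.

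Mrps36, the dehydrogenase adaptor, fell in wild type from 10.2, 10, 12.3 and 10.2 FPKM to 8.44, 7.43, 9.15 and 7.37 FPKM (-0.36 ± 0.10, limma adjusted p = 0.0123). Mrpl44, an RNase III-like protein of the large subunit, measured 16.8, 14.1, 15.3 and 15 FPKM and then 13, 11.8, 14.6 and 12.8 FPKM. The groups overlapped and the call was narrow (-0.21 ± 0.08, limma adjusted p = 0.0444). Mrps11, of the small subunit, and Mrpl4, near the large subunit's exit tunnel, fell by 0.27 and 0.21 on the log2 scale (limma adjusted p = 0.0338 and 0.022). The others that fell were Mrpl19, Mrpl22, Mrpl33, Mrps2, Mrps15 and Mrps22. In the other direction, Mrps31, of the small subunit, had the highest value, from 3.73, 3.28, 3.75 and 3.03 FPKM to 4.12, 3.44, 4.42 and 3.66 FPKM, with overlap (0.14 ± 0.09, limma adjusted p = 0.237). Mrps17, also of the small subunit, followed with 5.4, 5.18, 4.7 and 5.6 FPKM against 5.92, 5.99, 5.75 and 5.59 FPKM (0.13 ± 0.06, limma adjusted p = 0.11). Mrps17 passed as higher with median-ratio scaling of the FPKM (limma adjusted p = 0.0493) and on recovered reads (limma voom adjusted p = 0.0468 with median ratios and 0.037 on library totals).

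Without wild-type dexamethasone library 2, 11 members were called in place of 18, and 3041 of all genes in place of 3508. Fitting the wild-type libraries alone gave 10 members and 2504 genes. With 1 wild-type library per treatment, those under 50 FPKM of Col1a1, the members' median was -0.18, against -0.01 over all genes. The calls of Mrpl44, Mrps11 and Mrpl4 ended without any of 10, 3 and 4 single libraries (limma adjusted p = 0.0550 to 0.131, 0.0672 to 0.102 and 0.0507 to 0.0666). Of 13 proliferation genes 9 fell in the same comparison, with a median of -0.75, and 7 of 10 macrophage markers fell while 2 rose. The part of either in the members' falls was not tested.

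**Figure D1:**
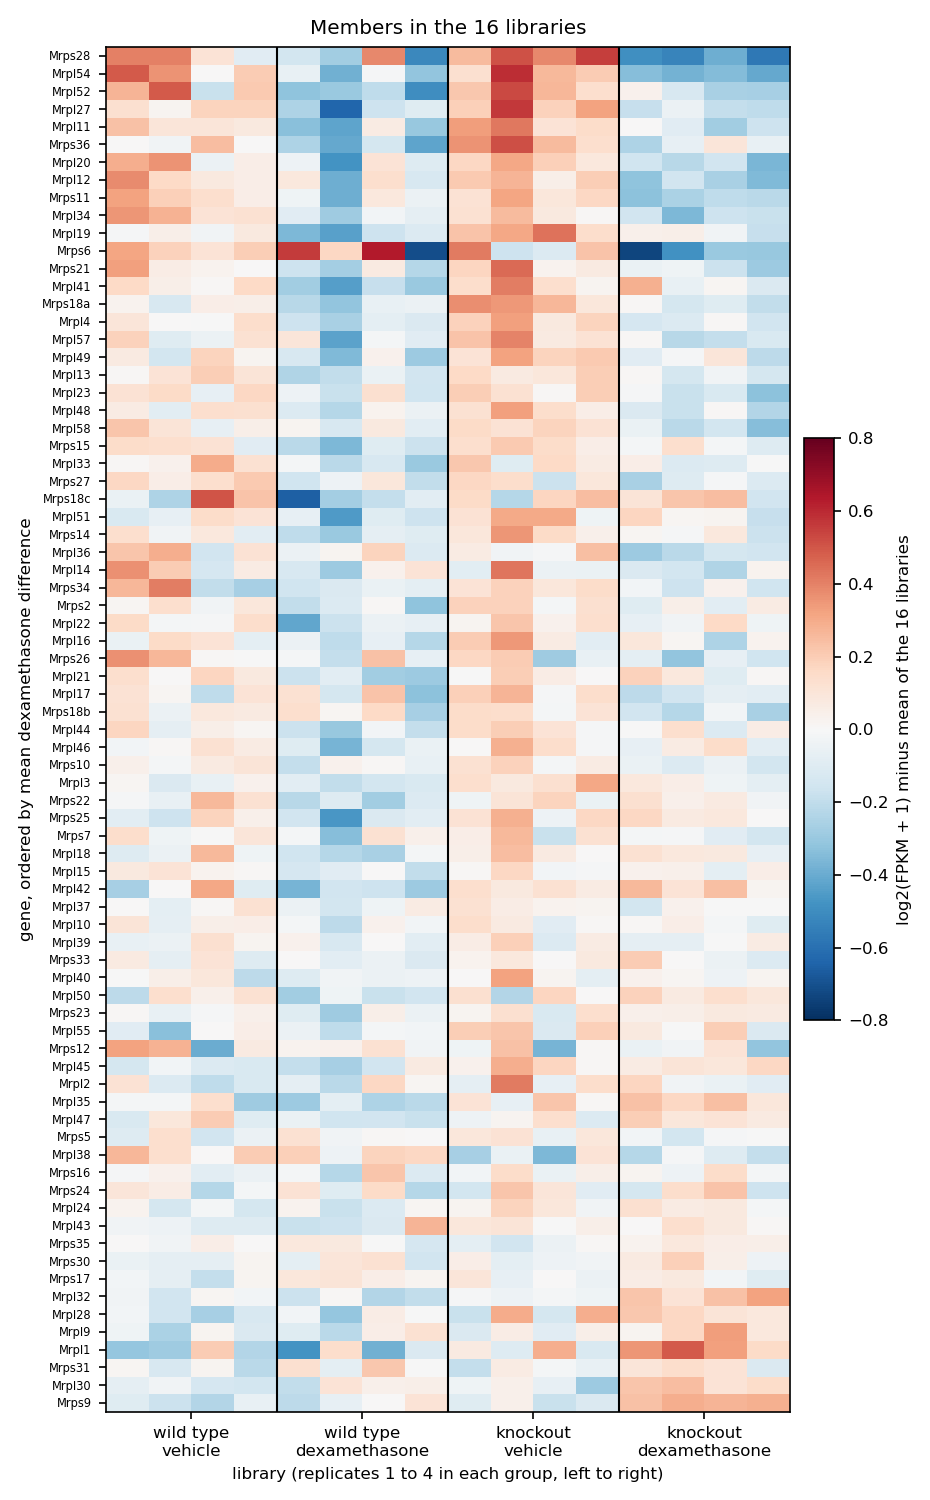
Heat map of the 77 members (rows, ordered by the mean of both dexamethasone differences) in the 16 libraries (columns, 4 per group). Colour gives log2(FPKM + 1) minus the gene's mean over all libraries. On the authors' scale most rows are bluer with dexamethasone in both genotypes. Mrps28 and Mrpl54 are at the top by that mean, Mrps28 mainly through the knockout, as it was not called in wild type. Mrps9, Mrpl30 and Mrpl1 at the foot are redder in knockout dexamethasone libraries.

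In knockout macrophages 23 members fell with dexamethasone and 3 rose on the authors' FPKM scale, 33.8% of the 77. With recovered reads scaled to library totals, however, 6 were lower and 11 higher, as were 1724 and 3290 of 11650 genes. On the authors' scale 39.1% of all genes tested were called, 24.1% lower and 15% higher. The share of members that fell there (29.9%) lay near the background and the share that rose (3.9%) under it. Below 0 lay 59 members (76.6%), against 56.5% of all genes. The median difference was -0.11, against -0.05. Groups did not overlap in 26 members that were lower (33.8%, against 23.9%) and in 4 that were higher (5.19%, against 16.6%). Wild-type and knockout comparisons share no library. On library totals the members' median turned to 0.04, against 0.12 over all genes, so it lay under that of all genes on both scales while its sign depended on the scale. Quantile normalization gave a median of -0.03 with 14 members lower and 4 higher, against 1968 and 2059 of 11654 genes. Recovered reads in the same voom fit with median-ratio scaling gave 18 lower and 5 higher, against 2350 and 2299 of 11650 genes. Of the members described next, Mrps28, Mrpl54, Mrpl27, Mrpl12, Mrps11 and Mrps18a passed as lower on library totals too, and Mrps9, Mrpl30 and Mrpl32 as higher, whereas Mrpl4, Mrpl11, Mrpl13, Mrpl34, Mrpl52, Mrpl58, Mrps10, Mrps18b, Mrps21 and Mrps36 kept their sign and did not pass (limma voom adjusted p from 0.0564 to 0.421).

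Mrps28 (chr3:8802146-8923918), a small-subunit protein, fell most. It measured 13.9, 16.7, 15.3 and 17.3 FPKM with vehicle and 7.87, 7.66, 8.52 and 7.4 FPKM with dexamethasone, a change in mean FPKM of -50.2% (-0.92 ± 0.16, limma adjusted p = 0.000372). The 4 dexamethasone libraries lay close together and far under the vehicle libraries. In wild type, Mrps28 measured 15.5, 15.5, 12.4 and 10.7 FPKM and then 10.2, 9.28, 15.3 and 7.73 FPKM, with overlap through dexamethasone library 3 (-0.34 ± 0.16, limma adjusted p = 0.117). Without that library its wild-type difference was -0.52 and passed (limma adjusted p = 0.00697). Mrpl54 fell from 31.1, 43.2, 34.1 and 32.8 FPKM to 22.2, 21.6, 22 and 21.1 FPKM (-0.66 ± 0.12, limma adjusted p = 0.000472). The 4 treated libraries again lay within a narrow range under all vehicle libraries.

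Among large-subunit proteins, Mrpl12, which also binds the mitochondrial RNA polymerase, fell from 17.4, 18.1, 15.3 and 17.1 FPKM to 11.7, 13.2, 12.2 and 11.4 FPKM (-0.45 ± 0.11, limma adjusted p = 0.00362). In wild type it stood at 19.6, 16.7, 15.7 and 15.5 FPKM and then 15.8, 11.1, 16.4 and 13.5 FPKM. There the groups overlapped (-0.24 ± 0.11, limma adjusted p = 0.0989), and without dexamethasone library 3 the difference passed (limma adjusted p = 0.0444). Mrpl58, a peptidyl-tRNA hydrolase built into the large subunit, measured 6.03, 5.87, 6.17 and 5.84 FPKM and fell to 5.11, 4.45, 4.71 and 4.01 FPKM (-0.33 ± 0.07, limma adjusted p = 0.00273). In wild type its libraries held 6.38, 5.79, 5.04 and 5.54 FPKM and then 5.42, 4.79, 5.69 and 4.96 FPKM, with no call (-0.10 ± 0.07, limma adjusted p = 0.319). Mrpl4 measured 25.2, 27.9, 23.3 and 25 FPKM and fell to 20, 20.4, 22.2 and 19.7 FPKM (-0.29 ± 0.06, limma adjusted p = 0.00271), from wild-type levels of 23.6, 22.1, 21.9 and 24.4 FPKM that went to 19.5, 18.3, 20.9 and 20.3 FPKM. Both genotypes were separated by treatment in Mrpl4.

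Mrps18a, Mrps18b and Mrps18c are paralogues that correspond to a single protein of the bacterial small subunit. Mrps18a fell in knockout from 12.7, 12.5, 11.8 and 10.3 FPKM to 9.7, 8.62, 8.92 and 8.28 FPKM (-0.38 ± 0.08, limma adjusted p = 0.00174). In wild type it went from 9.84, 8.72, 10 and 9.98 FPKM to 8.12, 7.53, 9.19 and 9.29 FPKM (-0.16 ± 0.08, limma adjusted p = 0.144). Vehicle libraries of the knockout were all above those of the wild type, though not past the threshold (0.27 ± 0.08, limma adjusted p = 0.0664). Mrps18b fell in knockout from 5.25, 5.23, 4.58 and 5.08 FPKM to 4.07, 3.82, 4.55 and 3.71 FPKM (-0.26 ± 0.09, limma adjusted p = 0.0281) and stood at 5.15, 4.47, 4.99 and 4.94 FPKM and then 5.21, 4.7, 5.3 and 3.7 FPKM in wild type (-0.05 ± 0.09, limma adjusted p = 0.717). Mrps18c measured 10.2, 7.63, 10.4 and 11 FPKM and then 9.87, 10.8, 11 and 8.1 FPKM in knockout (0.02 ± 0.16, limma adjusted p = 0.943). Its wild-type values, 8.75, 7.53, 13.3 and 10.8 FPKM and then 5.42, 7.37, 7.84 and 8.52 FPKM, were scattered and did not pass (-0.41 ± 0.16, limma adjusted p = 0.0725). Of the exon bases of Mrps18b and Mrps18c 30.5% and 23.2% lie within other genes' exons. For Mrps18b the other gene runs on the opposite strand, so without a known strand setting such reads cannot be told apart. For Mrps18c it runs on the same strand, so the strand does not separate such reads.

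Mrps11 fell in knockout from 9.99, 11.6, 9.81 and 10.4 FPKM to 7.1, 7.52, 7.83 and 7.72 FPKM (-0.42 ± 0.09, limma adjusted p = 0.0021). Its wild-type libraries held 11.7, 10.6, 10.1 and 9.54 FPKM and then 8.9, 6.74, 9.75 and 8.81 FPKM, with overlap. Mrps11 overlaps Mrpl46, which runs on the other strand, and 8% of its exon bases are shared with it. Mrps21 measured 54.1, 65.7, 48.9 and 50.3 FPKM and then 46, 46.7, 42.4 and 38.8 FPKM in knockout (-0.32 ± 0.11, limma adjusted p = 0.0276), and 60.4, 49.8, 48.9 and 47.8 FPKM and then 42.5, 39.4, 50.4 and 40.6 FPKM in wild type (-0.25 ± 0.11, limma adjusted p = 0.0874). Mrpl34 in knockout went from 46.6, 51.1, 45.1 and 43 FPKM to 38.3, 33, 37.9 and 37.7 FPKM, the same -0.33 as in wild type (limma adjusted p = 0.00414). Mrpl27 fell from 41.2, 53.6, 40.9 and 45.1 FPKM to 31.5, 34.8, 31.3 and 31 FPKM (-0.47 ± 0.11, limma adjusted p = 0.00327). Among these 4, vehicle library 2 was the highest of its group, and none of the treated libraries reached a vehicle library.

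Mrpl52 in knockout stood at 21.5, 26.9, 22.4 and 20.3 FPKM and then 18.8, 16.8, 15.2 and 15.1 FPKM (-0.44 ± 0.13, limma adjusted p = 0.0119). Mrpl11 went from 11.1, 11.9, 9.41 and 9.68 FPKM to 8.68, 8.07, 6.94 and 7.58 FPKM (-0.38 ± 0.10, limma adjusted p = 0.00762) and Mrps36 from 13.4, 15, 12.3 and 11.3 FPKM to 8.42, 9.7, 11 and 9.76 FPKM (-0.39 ± 0.10, limma adjusted p = 0.00612). Mrpl13 held 3.4, 3.13, 3.2 and 3.51 FPKM and then 2.97, 2.58, 2.87 and 2.57 FPKM (-0.20 ± 0.06, limma adjusted p = 0.021). All 4 were among the members that fell in both genotypes. Mrps10, of the small subunit, measured 2.39, 2.54, 2.08 and 2.26 FPKM and then 1.99, 1.89, 2.01 and 1.81 FPKM, a narrow call (-0.18 ± 0.07, limma adjusted p = 0.0492) against wild-type values of 2.2, 2.07, 2.27 and 2.35 FPKM and then 1.73, 2.19, 2.13 and 1.99 FPKM. The others that fell in knockout were Mrpl19, Mrpl20, Mrpl23, Mrpl36, Mrpl48, Mrpl49 and Mrpl57. Calls ended without any of 13 single libraries for Mrps10, 6 for Mrps18b and 4 each for Mrps21 and Mrpl13 (limma adjusted p = 0.0520 to 0.137, 0.0519 to 0.0781, 0.0523 to 0.0957 and 0.0527 to 0.0633). Proliferation genes fell in 8 of 13 cases in knockout, with a median of -0.56, and of 10 macrophage markers 6 fell and 3 rose. Their part was not tested.

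On the authors' scale 18 members lay above 0 with dexamethasone in knockout, and 3 of them rose. Mrps9 (chr1:42851233-42905683), a small-subunit protein with a bacterial counterpart, went from 4.58, 5.13, 4.27 and 4.49 FPKM to 6.02, 6.29, 6.19 and 6.25 FPKM (0.36 ± 0.07, limma adjusted p = 0.001). Mrpl30 (chr1:37890477-37898535), of the large subunit, rose from 8.98, 9.52, 8.76 and 7.35 FPKM to 10.9, 11.1, 10 and 10.3 FPKM (0.27 ± 0.08, limma adjusted p = 0.0129). Mrpl32 (chr13:14608184-14613165), a large-subunit protein that a mitochondrial protease must mature before the ribosome can assemble, rose from 2.24, 2.17, 2.23 and 2.18 FPKM to 2.81, 2.51, 2.84 and 3.07 FPKM (0.25 ± 0.07, limma adjusted p = 0.0116). Treated and vehicle libraries did not overlap in any of the 3. In wild type, Mrps9 stood at 4.58, 4.29, 4.06 and 4.73 FPKM and then 4.16, 4.69, 4.98 and 5.42 FPKM (0.10 ± 0.07, limma adjusted p = 0.317). Mrpl30 stood at 8.74, 9.01, 8.33 and 8.23 FPKM and then 7.91, 10, 9.53 and 9.54 FPKM (0.09 ± 0.08, limma adjusted p = 0.395), and Mrpl32 at 2.21, 1.93, 2.3 and 2.22 FPKM and then 1.89, 2.29, 1.77 and 1.85 FPKM (-0.10 ± 0.07, limma adjusted p = 0.297). None of the 3 passed in wild type on the authors' scale, and treated and vehicle libraries overlapped there in each. On library totals Mrps9 passed as higher in wild type too (0.21, limma voom adjusted p = 0.0461).

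**Figure D2:**
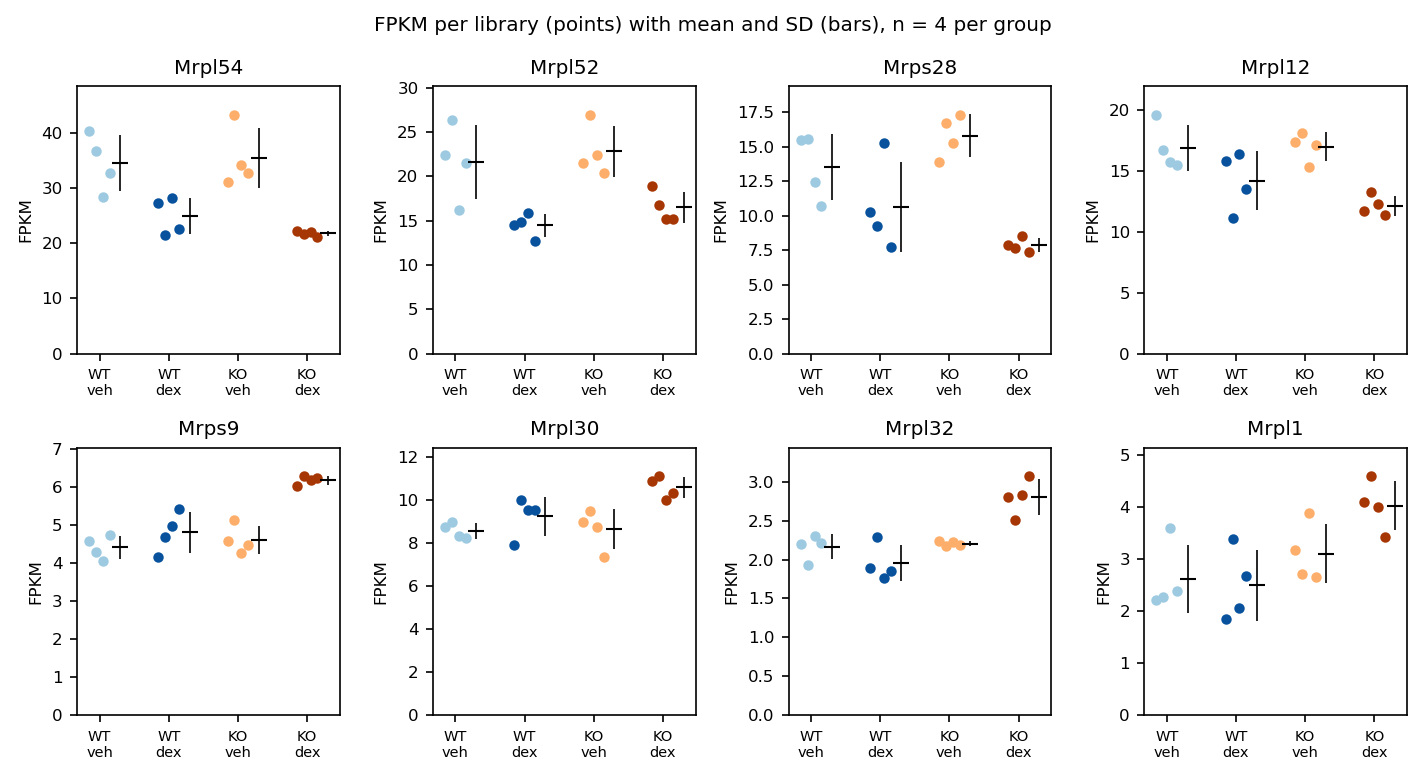
FPKM of 8 members in each library (points, replicates 1 to 4 left to right) with the group mean and SD (bars, n = 4), each axis from 0. WT and KO are wild type and knockout, veh and dex vehicle and dexamethasone. The upper row shows members that were lower with dexamethasone in knockout. Knockout dexamethasone libraries lie within a narrow range there in Mrpl54, Mrps28 and Mrpl12, but from 15.1 to 18.8 FPKM in Mrpl52. The lower row shows members that were higher in knockout dexamethasone libraries, such as Mrps9 between 6.02 and 6.29 FPKM. In that row Mrpl1 did not pass against knockout vehicle on the authors' scale (limma adjusted p = 0.126), and its knockout groups overlap.

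Both genotypes were then set side by side. Lower in both were 10 members, Mrpl4, Mrpl11, Mrpl13, Mrpl19, Mrpl27, Mrpl34, Mrpl52, Mrpl54, Mrps11 and Mrps36, which is 55.6% of those lower in wild type and 43.5% of those lower in knockout. Over all genes tested the shares of these lists were 80.9% and 61.1%, and 14.7% of genes were lower in both, against 13% of members. Another 8 passed as lower in wild type and not in knockout, 13 the other way round, and 43 passed in neither. Regardless of calls, and on the authors' scale, 53 members lay below 0 in both genotypes, 7 above 0 in both, 11 below in wild type and above in knockout, and 6 the reverse. Below 0 in both thus lay 68.8% of members, against 43.1% of all genes, and above 0 in both 9.09%, against 33.8%. Across the 77 genes, which are not independent replicates, Pearson's r between the 2 differences was 0.586 and Spearman's rho 0.562, beside an r of 0.791 over all genes tested. Passing in one genotype does not show a difference from the other. The test of that difference, the interaction, called 0 members and 0.129% of all genes, 0.0601% higher and 0.0686% lower. An unadjusted p under 0.05 was found for 9 members with limma, and for 12 and 7 with limma voom on recovered reads scaled to library totals or by median ratios, of which 0 passed after adjustment. All genes were not counted at this unadjusted level, so these numbers of members have no background to be read against.

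Interaction values, the knockout minus the wild-type response, were most negative for Mrps28 (-0.57 ± 0.22, limma adjusted p = 0.322) and Mrps6 (-0.51 ± 0.33, limma adjusted p = 0.569), and most positive for Mrps18c (0.43 ± 0.23, limma adjusted p = 0.498). Next came Mrpl1, a protein of the large subunit's mobile stalk, at 0.35 ± 0.21 (limma adjusted p = 0.538). The smallest adjusted p was that of Mrpl32 (0.35 ± 0.10, limma adjusted p = 0.194). The interaction was above 0 for 39 members and below 0 for 38 (49.4%, against 53.7% of all genes below and 46.3% above). Mrps6, a small-subunit protein, held 7.54, 6.8, 6.42 and 6.89 FPKM in wild-type vehicle and 9.12, 6.71, 9.67 and 3.2 FPKM in wild-type dexamethasone libraries. Its knockout libraries held 8.18, 5.12, 5.37 and 7.06 FPKM and then 3.13, 3.91, 4.59 and 4.57 FPKM. Wild-type dexamethasone library 4 stood far from its group. With it, the fall in knockout did not pass (-0.55 ± 0.23, limma adjusted p = 0.0756), and without it, with the spread shared over groups, it did (limma adjusted p = 0.00686). Of the exon bases of Mrps6 19.9% are shared with 2 other genes.

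**Figure D3:**
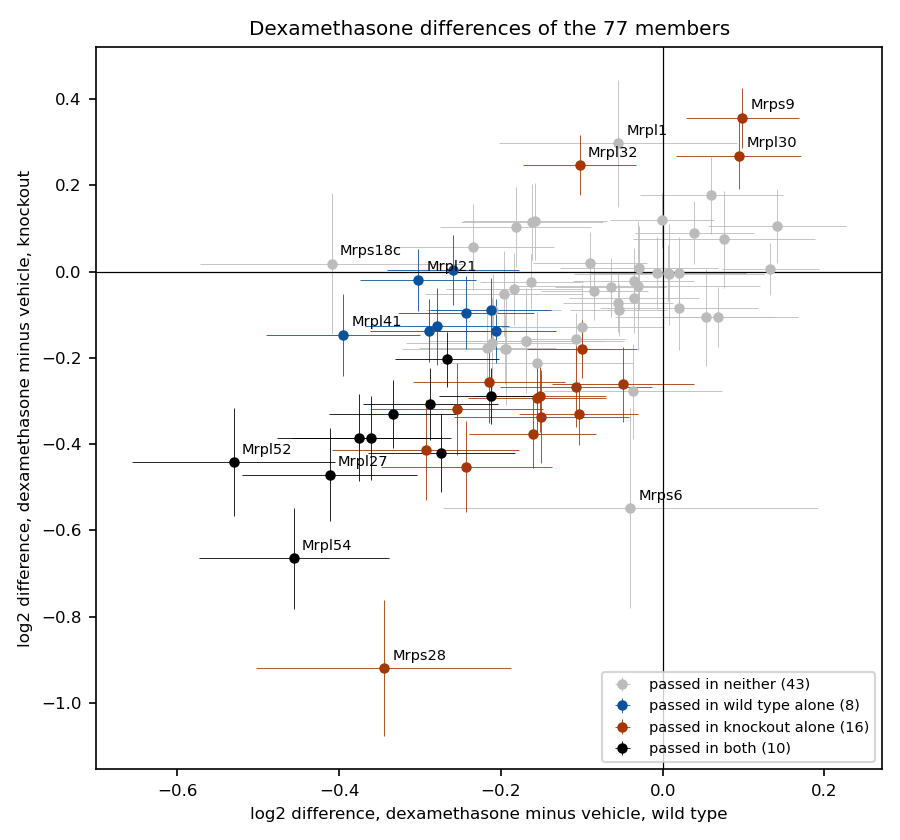
Log2 difference with dexamethasone in wild type (horizontal) and in knockout (vertical) for each of the 77 members, with SE as bars and colour by call. On the authors' scale most points lie below 0 on both axes, black points are the 10 that passed in both genotypes, and the 16 that passed in knockout alone include Mrps9, Mrpl30 and Mrpl32 above 0.

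With vehicle, 0 of 77 members differed between knockout and wild type, against 4.68% of all genes, 3.37% higher and 1.3% lower. An unadjusted p under 0.05 was found for 7 members with limma, and for 5 and 6 with limma voom on recovered reads scaled to library totals or by median ratios, of which 0 passed after adjustment. Here too the unadjusted counts have no background over all genes. The groups did not overlap in 6 members that were higher (7.79%, against 7.66%) and in 0 that were lower (against 2.97%). Above 0 lay 60 members (77.9%, against 60.1%). The median was 0.06, near the 0.04 of all genes, and on library totals -0.01, against -0.02. Mrps18a had the highest value (0.27 ± 0.08) and Mrps36 the next (0.26 ± 0.10, limma adjusted p = 0.148). Lowest were Mrpl38, of the large subunit, at 12.5, 11.4, 10.2 and 12 FPKM in wild type and 8.33, 9.85, 7.75 and 11.1 FPKM in knockout (-0.30 ± 0.10, limma adjusted p = 0.0984), and Mrps26, of the small subunit, at 11.9, 11.1, 9.13 and 9.03 FPKM and 10.3, 10.6, 7.25 and 8.63 FPKM (-0.15 ± 0.12, limma adjusted p = 0.473). The genotypes did not overlap in Mrps18a and overlapped in Mrpl38 and Mrps26. Without the 3 libraries apart in Col1a1, 6 members passed, 4 higher and 2 lower. Of 11654 genes 3958 then passed, 2448 higher and 1510 lower. Leaving out single libraries gave 3 member calls without wild-type vehicle 3, 1 without wild-type dexamethasone 4 and 4 without knockout vehicle 4. The same settings called 1623, 838 and 1285 of all genes, against 545 with all libraries.

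Under dexamethasone 14 members were higher in knockout and 0 lower, 18.2% of the 77, against 14.3% of all genes higher, 12.4% lower and 26.7% in either direction. The share higher lay near the background. With no filter on low values, or one of 5 FPKM, 7 members passed, all higher. Median-ratio scaling gave 9 higher and 1 lower on the FPKM and 9 higher on recovered reads. These 4 settings called 2612 of 28196, 2172 of 7264, 3186 of 11654 and 2632 of 11650 genes. The groups did not overlap in 13 members that were higher (16.9%, against 16.3%) and in 1 that was lower (1.3%, against 10.2%). Above 0 lay 53 members (68.8%, against 54.9%). The median was 0.09, against 0.03, and 0.11, against 0.04, on library totals, where 14 were again called higher and 0 lower. On library totals 1847 of 11650 genes were higher and 891 lower. This comparison uses the same treated libraries as both dexamethasone comparisons. Log2 differences of the 14 ran from 0.21 to 0.54. Among them 10 belong to the large subunit and 4 to the small.

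Mrpl32 had the smallest adjusted p, with every knockout library above every wild-type one (0.37 ± 0.07, limma adjusted p = 0.00262). Mrps9 likewise separated the genotypes (0.31 ± 0.07, limma adjusted p = 0.00703). Mrpl35, of the large subunit, stood at 2.84, 3.45, 2.96 and 3.05 FPKM in wild type and 4.53, 4.28, 4.54 and 4.01 FPKM in knockout (0.39 ± 0.09, limma adjusted p = 0.00729), with vehicle levels of 3.65, 3.64, 4.16 and 2.85 FPKM and of 4.06, 3.49, 4.49 and 3.74 FPKM. Mrpl42, particular to mitochondria, measured 5.13, 6.16, 6.1 and 5.49 FPKM in wild type and 8.51, 7.57, 8.39 and 7.06 FPKM in knockout (0.40 ± 0.10, limma adjusted p = 0.0115), beside vehicle levels of 5.62, 6.98, 8.85 and 6.43 FPKM and of 7.72, 7.41, 7.63 and 7.32 FPKM. In both genes the genotypes overlapped with vehicle and not with dexamethasone. Among the 14, the largest difference was that of Mrpl1, at 1.85, 3.38, 2.05 and 2.67 FPKM in wild type and 4.09, 4.59, 4 and 3.42 FPKM in knockout (0.54 ± 0.15, limma adjusted p = 0.0176). With vehicle it measured 2.22, 2.26, 3.59 and 2.39 FPKM and 3.18, 2.71, 3.87 and 2.65 FPKM, with overlap.

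Mrpl41, which had fallen in wild type, stood at 20.4, 24.7, 20.2 and 18.7 FPKM with vehicle and 22.6, 17.6, 18.6 and 16.9 FPKM with dexamethasone in knockout, and was higher than in wild type under dexamethasone (0.33 ± 0.10, limma adjusted p = 0.0221). Mrpl21 in knockout held 7.59, 8.85, 7.99 and 7.62 FPKM and then 8.8, 8.12, 7.05 and 7.66 FPKM (0.25 ± 0.07 against wild type under dexamethasone, limma adjusted p = 0.0221). Mrpl45, which ties the large subunit to the inner membrane, measured 10.6, 11.5, 10.8 and 10.7 FPKM with vehicle and 10.2, 9.6, 10.5 and 12.4 FPKM with dexamethasone in wild type. In knockout it held 12.1, 14.6, 13.4 and 11.8 FPKM and then 12.3, 12.7, 12.5 and 13.3 FPKM, so that the treatment passed in neither genotype (limma adjusted p = 0.759 and 0.861), and the genotypes differed by 0.24 ± 0.08 under dexamethasone (limma adjusted p = 0.0317). The others were Mrpl19, Mrpl47, Mrpl50, Mrps15, Mrps22 and Mrps25. Mrps25 shares 69.8% of its exon bases with Nr2c2. Mrpl47, near the filter, held 0.995, 1.31, 1.49 and 1.03 FPKM and then 1.09, 0.938, 0.948 and 0.913 FPKM in wild type, and 1.1, 1.2, 1.38 and 1.01 FPKM and then 1.49, 1.31, 1.34 and 1.28 FPKM in knockout (0.26 ± 0.09 under dexamethasone, limma adjusted p = 0.0468). The lowest values were those of Mrps6 (-0.62 ± 0.23, limma adjusted p = 0.0616, and -0.91, adjusted p = 0.000675, without wild-type dexamethasone 4) and Mrps28 (-0.36 ± 0.16, limma adjusted p = 0.106, and -0.48, adjusted p = 0.0247, without that library).

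Of 10 macrophage markers 6 were higher in knockout under dexamethasone and 0 lower, with a median of 0.37, and their part was not tested. Stromal markers differed between the same libraries. Of 8 tested, 7 were lower in knockout under dexamethasone, with a median of -3.53, and with vehicle 0 passed, with a median of -2.61. With the mean log2 level of the 10 stromal markers as a covariate, 1 member was called under dexamethasone in place of 14. Of 11654 genes 962 were called in place of 3114. The members' median with the covariate was 0.07, against 0.09 without it, and 54 members lay above 0, against 53. Over all genes the median was -0.002, against 0.03. The stromal score under dexamethasone averaged 4.13 in wild type and 1.49 in knockout, so stroma and genotype largely go together in this fit. The part of stroma was not tested. The subset where Col1a1 stayed under 50 FPKM leaves a lone wild-type dexamethasone library. In that subset the median was 0.08 over members and -0.01 over all genes. Leaving out the 3 libraries apart in Col1a1 gave 23 member calls, 18 higher and 5 lower, against 2967 and 2191 of 11654 genes. Single libraries also moved the count, over all genes from 1517 without wild-type dexamethasone 1 to 4070 without wild-type dexamethasone 4. For members it was 5 without wild-type dexamethasone 1, knockout dexamethasone 1 or knockout dexamethasone 2. It was 7 without wild-type dexamethasone 3 or knockout dexamethasone 3, and 9 without knockout vehicle 1 or knockout dexamethasone 4. The calls of Mrpl1, Mrpl21 and Mrpl41 ended without any of 3 single libraries each, that of Mrpl45 without any of 7 and that of Mrpl47 without any of 12 (limma adjusted p from 0.0513 to 0.119).

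**Figure D4:**
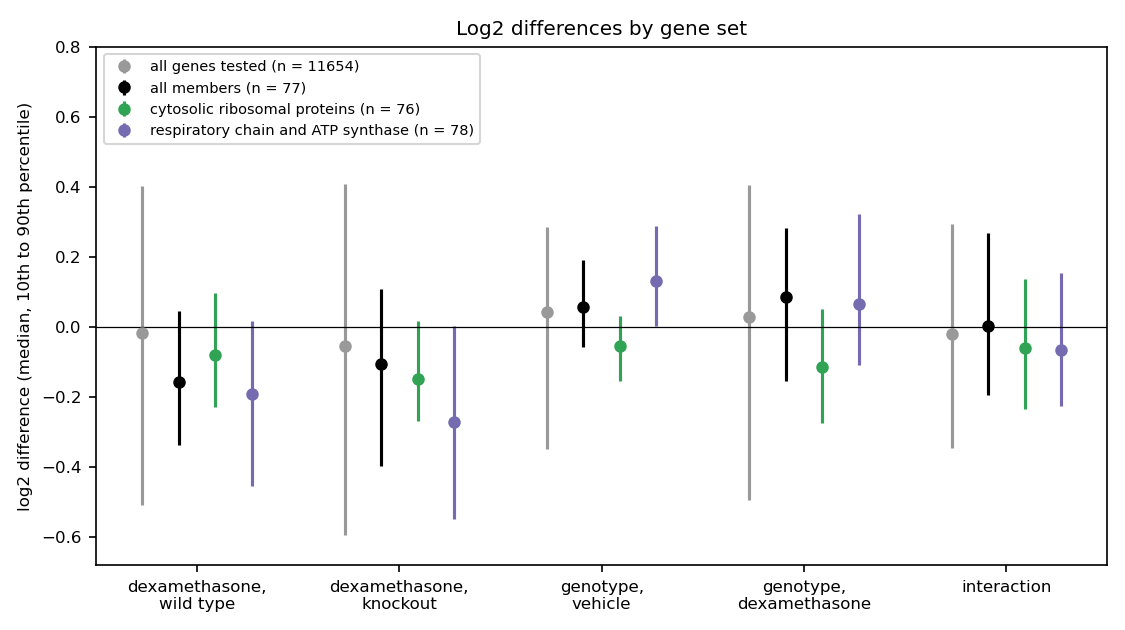
Median (points) and 10th to 90th percentile (bars) of the log2 differences of all genes tested, the 77 members, 76 cytosolic ribosomal protein genes and 78 nuclear genes of the respiratory chain and ATP synthase, in the 5 comparisons. On the authors' FPKM scale the members' medians of -0.16 and -0.11 with dexamethasone lie under those of all genes (-0.02 and -0.05), and their bars are shorter. On library totals the knockout median is 0.04, against 0.12.

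By subunit and on the authors' scale, the large one had 13 of 50 genes lower with dexamethasone in wild type and 17 lower and 2 higher in knockout. The small one had 4 of 26 lower in wild type and 5 lower and 1 higher in knockout. Medians were -0.16 and -0.10 in wild type and -0.10 and -0.12 in knockout. Of the members with a bacterial counterpart 12 of 47 were lower in wild type and 16 in knockout, with 3 higher. Of those particular to mitochondria 5 of 29 and 6 of 29 were lower and 0 higher. Over all genes tested 18.2% were lower and 11.9% higher in wild type, and 24.1% lower and 15% higher in knockout. Subunits and origins were not compared by a test. Mrps12, at the decoding centre of the small subunit, held 19.1, 18.5, 11.2 and 15.9 FPKM and then 15.4, 15.4, 16.5 and 14.7 FPKM in wild type, and 14.7, 17.9, 11.4 and 15.2 FPKM and then 14.4, 14.7, 16.3 and 11.9 FPKM in knockout. Replicate 3 was lowest in both vehicle groups, and no difference passed (limma adjusted p = 0.904 and 0.893 for dexamethasone). Mrps30 stayed between 2.01 and 2.8 FPKM in all libraries and Mrps35, of the small subunit, between 1.73 and 2.23 FPKM, with no limma call in any comparison. In knockout every dexamethasone library of Mrps35 lay above every vehicle library (0.12 ± 0.06, limma adjusted p = 0.159), and on recovered reads it passed (limma voom adjusted p = 0.0174 on library totals and 0.041 with median ratios). Mrps30 also passed as higher in knockout on library totals (0.30, limma voom adjusted p = 0.0461).

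**Figure D5:**
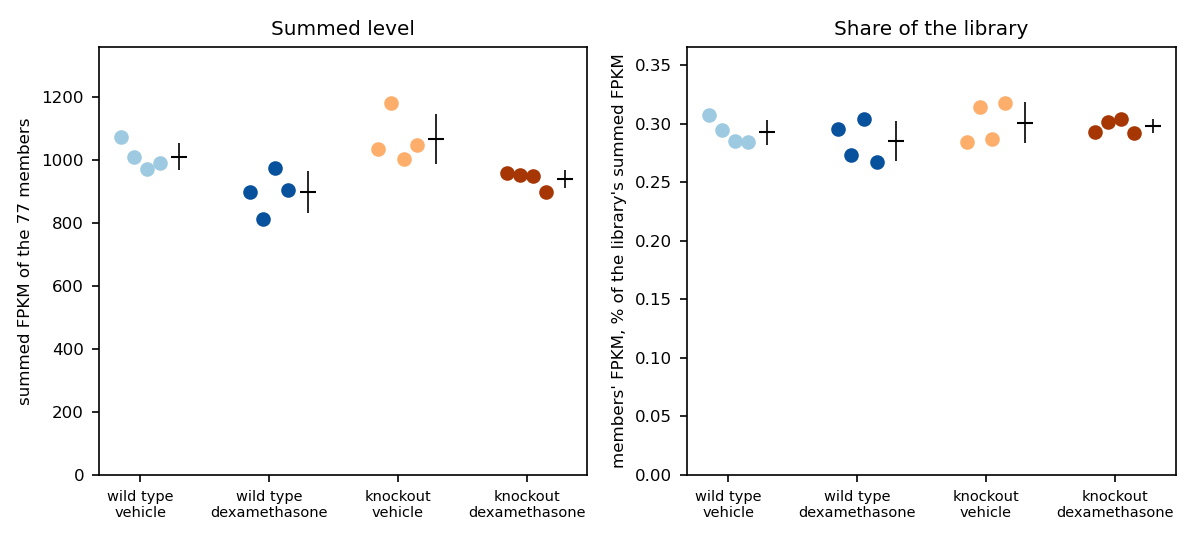
Summed FPKM of the 77 members per library (left) and the same as a percentage of the library's summed FPKM (right), with group mean and SD (bars, n = 4), both axes from 0. Sums on the authors' scale are lower with dexamethasone (898 and 940 FPKM against 1011 and 1067 FPKM), and the percentages overlap in all groups.

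Summed over the family, the level was 1011 ± 43.5 FPKM with vehicle in wild type (SD, n = 4) and 898 ± 66.5 FPKM with dexamethasone, and 1067 ± 78.6 and 940 ± 27.3 FPKM in knockout. The groups of wild type met at 972 FPKM with vehicle and 975 FPKM with dexamethasone, and those of the knockout did not overlap. These sums are weighted by abundant members and were not tested. As a share of all FPKM of a library they came to 0.293%, 0.285%, 0.301% and 0.298%, with overlap between all groups. The 76 genes of cytosolic ribosomal proteins, whose ribosome translates nuclear messages, had medians of -0.08 in wild type and -0.15 in knockout, with 2 and 3 lower and 0 higher. The 78 nuclear genes of the respiratory chain and ATP synthase, which work beside the proteins that mitochondrial ribosomes make, had medians of -0.19 and -0.27, with 27 lower in wild type and 42 lower and 1 higher in knockout. Differences between these families were not tested. Counts and medians by subunit and for other lists, here and below, are on the authors' FPKM scale and were not rerun on library totals, which put the median of all genes higher with dexamethasone.

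Other genes of mitochondrial translation went both ways. Of the 5 ribosomal subunits with other names, 2 were lower in wild type and 1 in knockout. Chchd1, of the small subunit, fell in wild type (26.5 ± 0.963 with vehicle, 20.8 ± 1.41 FPKM with dexamethasone) and in knockout (26.2 ± 1.22, then 21.8 ± 2.91 FPKM) (SD, n = 4, limma adjusted p = 0.00511 and 0.0182). Aurkaip1, of the small subunit, fell in wild type from 34 ± 3.38 to 28.9 ± 1.9 FPKM (limma adjusted p = 0.0368), and Dap3, a GTP-binding protein of the small subunit, stayed at 5.64 to 5.87 FPKM in all group means. Among 23 assembly factors 1 rose and 1 fell in wild type, and 4 rose and 5 fell in knockout. The rRNA methyltransferase Mrm1 rose in both genotypes (0.32 and 0.31, limma adjusted p = 0.0136 and 0.0115) and the pseudouridine synthase Rpusd4 fell in both (-0.29 and -0.33, limma adjusted p = 0.0089 and 0.00244). Eral1, a GTPase that chaperones the small-subunit rRNA, fell in knockout from 9.41 ± 0.618 to 7.51 ± 0.78 FPKM (limma adjusted p = 0.00547) and stood at 8.98 and 9.13 FPKM in wild type. Rbfa, another small-subunit assembly factor, was higher in knockout with vehicle (29.7 ± 2.6 against 39.9 ± 3.03 FPKM, limma adjusted p = 0.00857).

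Of 13 translation factors 1 fell in wild type, and 2 rose and 5 fell in knockout. Gfm2, a factor of ribosome recycling, fell in both genotypes by 0.22 and 0.24 on the log2 scale (limma adjusted p = 0.0243 and 0.012). The elongation factor Gfm1 fell in knockout by 0.36 (limma adjusted p = 0.00861), and the initiation factor Mtif2 rose from 5.81 ± 0.71 to 7.44 ± 0.516 FPKM (limma adjusted p = 0.0284). Among 19 mitochondrial aminoacyl-tRNA enzymes, which charge tRNAs, 2 rose in wild type, and 2 rose and 1 fell in knockout. Nars2, the asparaginyl-tRNA synthetase, rose in wild type (0.744 ± 0.058, then 1.96 ± 0.197 FPKM) and in knockout (0.823 ± 0.176, then 3.46 ± 0.566 FPKM), with log2 differences of 0.76 and 1.29 (limma adjusted p = 4.14e-05 and 1.87e-07). Tars2, the threonyl-tRNA synthetase, rose from 4.7 ± 0.357 to 6.61 ± 0.593 FPKM and from 4.95 ± 0.268 to 8.74 ± 1.1 FPKM (0.42 and 0.71, limma adjusted p = 0.00137 and 1.02e-05). Both were also higher in knockout than in wild type under dexamethasone (0.59 and 0.35, limma adjusted p = 0.00111 and 0.00772), while their interactions did not pass (limma adjusted p = 0.162 and 0.329). On the log2(FPKM + 1) scale no member of the ribosomal protein family had a difference of 1 or more in any of the 4 pairwise comparisons. The largest fall was that of Mrps28 in knockout, -0.92 on this scale and -50.2% in mean FPKM.

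The messages that mitochondrial ribosomes translate mostly did not pass the test. Of 13 messenger RNAs of the mitochondrial genome 1, mt-Nd1, fell in wild type, from 871 ± 184 to 644 ± 95.2 FPKM (limma adjusted p = 0.0334), and in knockout the smallest limma adjusted p was 0.0723, for mt-Nd5 (-0.25). The ribosomal RNAs mt-Rnr1 and mt-Rnr2, which the members bind, rose in knockout from 107 ± 19.5 to 168 ± 10.6 FPKM and from 59 ± 8.67 to 109 ± 21.7 FPKM (limma adjusted p = 0.0022 and 0.000449). In wild type they stood at 129 ± 24.3 and 156 ± 19.5 FPKM and at 81.9 ± 14.8 and 108 ± 8.44 FPKM, with no call (limma adjusted p = 0.156 and 0.0551). Mitochondrial genes have near-identical nuclear copies, and the sources used here do not say how shared reads were counted, so these values are uncertain. A list for the transcription of mitochondrial genes and of nuclear genes for mitochondria held 15 measured genes. Among these 15, Yy1 rose in both genotypes (0.25 and 0.15, limma adjusted p = 0.000529 and 0.0109). Max, a partner of Myc, fell in both (-0.26 and -0.46, limma adjusted p = 0.0321 and 0.000728). Polg, the mitochondrial DNA polymerase, rose in wild type from 6.31 ± 0.705 to 7.74 ± 0.298 FPKM (limma adjusted p = 0.0132), and Pprc1, a coactivator of NRF1, fell in knockout from 7.21 ± 0.494 to 5.51 ± 0.148 FPKM (limma adjusted p = 0.00462). Tfam, which packages mitochondrial DNA, lay between 4.2 and 4.64 FPKM in the group means and was not called.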

How the data were processed

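RNA of 16 libraries was sequenced, and the authors deposited one table of FPKM per library for 54532 gene identifiers, of which 54495 could be named. Per the submitters' processing notes, genome build GRCm38/mm10 was used, and DESeq2, HTSeq 0.6.1, TopHat2 2.0.12 and Bowtie2 2.2.3 took part. The sources used here state neither what each tool did, nor the strand setting, nor which annotation was used. Groups followed the labels. Genes reaching 1 FPKM in 4 or more libraries were tested on log2(FPKM + 1) with limma 3.58.1 (R 4.3.3) in one fit of all 4 groups, with an intensity trend, contrasts for each pair and for the interaction, and Benjamini-Hochberg adjustment over all 11654 genes at a threshold of 0.05. Fold changes on this scale understate those of low genes. From 96.3% to 96.7% of values gave whole reads within 0.05, and limma voom on these reads served as an alternative, calling 3605 genes for dexamethasone in wild type when scaled to library totals and 3562 with median ratios. Alternatives also covered the pseudocount, filters, scaling, the replicate block, fewer libraries and a stromal covariate. The steps were tested on simulated data.

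Values in every library were given for the 5 called members with the smallest adjusted p and the 2 with the largest difference per comparison and direction, the 3 highest and 3 lowest by mean, those nearest the filter and 11 members with known roles. Mrpl27 was added after its values were seen and is not in the counts of named calls. Other genes came from lists. Members and lists were chosen with earlier results of these data known. No 2 libraries agreed within sampling noise (smallest chi-square per gene 7.85). Promoters came from RefSeq (GRCm38.p6). Other steps ran in Python 3.11.15 (matplotlib 3.10.9, scipy 1.17.1, pandas 2.3.3, numpy 2.4.6).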

Additional observations from a re-analysis of the deposited data

Results flagged for a closer look

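In 8 of 148 groups of 4 libraries examined, 1 library lay apart from the other 3 by Dixon's criterion, and chance gives about 1 in 20. In wild-type vehicle libraries these were Mrpl1 in replicate 3 (3.59 FPKM, others 2.22 to 2.39 FPKM), Mrpl11 in replicate 1 (10.4 FPKM, others 9.19 to 9.33 FPKM) and Mrps18a in replicate 2 (8.72 FPKM, others 9.84 to 10 FPKM). Mrps21 in replicate 1 (60.4 FPKM, others 47.8 to 49.8 FPKM) and Mrps36 in replicate 3 (12.3 FPKM, others 10 to 10.2 FPKM) lay apart in the same group. In wild-type dexamethasone libraries Mrpl38 lay low in replicate 2 (9.93 FPKM, others 11.6 to 11.8 FPKM). In knockout dexamethasone libraries Mrpl34 lay low in replicate 2 (33 FPKM, others 37.7 to 38.3 FPKM), and the summed FPKM of the 77 members lay low in replicate 4 (899 FPKM, others 950 to 958 FPKM).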

How the results depend on the processing

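No called value of a named member changed sign under the alternatives run, while the median in knockout did. Of the values of single named members under alternatives, 4926 kept their side of the threshold, 157 lost it and 56 gained it. Of 38 calls of named members, 38 held with a pseudocount of 0.1 FPKM, 33 with quantile normalization, 31 with median-ratio scaling, 31 and 24 on recovered reads scaled by median ratios and to library totals, 32 with the replicate block, 30 with the stromal covariate and 17 among libraries under 50 FPKM of Col1a1.

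For dexamethasone in wild type, 10 members and 2504 of 11654 genes were called when the 2 groups were fitted alone. On recovered reads scaled to library totals the median was -0.0949 in wild type and 0.0364 in knockout. There 17 members were called in knockout, and 5014 of 11650 genes. The knockout median was -0.0252 with quantile normalization. With vehicle, 6 members and 3958 of 11654 genes differed between genotypes without the 3 libraries apart in Col1a1. The members' median was -0.0099 on library totals. Under dexamethasone, 7 differed with no filter, 7 with a filter of 5 FPKM and 9 on recovered reads with median ratios. With the stromal covariate 1 member and 962 of 11654 genes differed, and the members' median was 0.0706. Without the 3 libraries 23 members and 5158 genes differed. Among libraries under 50 FPKM of Col1a1 the members' median was 0.0768. The interaction's median was 0.0576 with quantile normalization and 0.0841 on library totals. The Col1a1, stromal and recovered-read alternatives were chosen after seeing the data, and the cause of these shifts was not tested.

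Leaving out each library in turn gave 11 to 24 member calls for dexamethasone in wild type, 20 to 27 in knockout, 0 to 4 between genotypes with vehicle, 5 to 19 under dexamethasone and 0 for the interaction. Over all 11654 genes the counts moved too, from 2898 to 3656, 3761 to 4835, 278 to 1623, 1517 to 4070 and 2 to 330. The members' medians ran from -0.182 to -0.1258, -0.1427 to -0.0683, 0.0339 to 0.0793, 0.069 to 0.1117 and -0.0449 to 0.0493.

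Libraries of the same number did not deviate together throughout (correlations from -0.685 to 0.732). With vehicle, wild-type and knockout libraries 3 and 4 did (0.732 and 0.535), while libraries 1 and 2 did not (-0.284 and -0.424). No steady pairing by number was seen, and these correlations cannot exclude one. With the replicate block the counts were 13, 24, 0, 7 and 0, against 3065, 4127, 377, 2203 and 1 of 11654 genes. The least covered member rested on 70 reads in a library, which limits the precision for low members.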

Other observations

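Calls with dexamethasone were counted by exon length, on the authors' FPKM scale. Of 39 members with exons at or under the median length 11 were lower in wild type and 13 in knockout, with 0 higher. Of 38 longer members 7 were lower in wild type, and 10 were lower and 3 higher in knockout. Over all genes tested 18.2% were lower in wild type, and 24.1% lower and 15% higher in knockout. Across the 77 members the log2 difference and exon length had a Spearman rho of 0.288 in wild type and 0.268 in knockout, against 0.0946 and 0.0467 over all genes. With the mean level in place of length, rho was -0.18 and -0.282 across members, against -0.156 and -0.167 over all genes. These are descriptions across genes of the same libraries, and shorter and longer members were not compared by a test.

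Of the members, 45 share no exon bases with another gene. Among them 11 were lower with dexamethasone in wild type, and 13 were lower and 3 higher in knockout. Under dexamethasone 10 of them were higher in knockout than in wild type. Over all genes tested the shares called in these 4 ways were 18.2%, 24.1%, 15% and 14.3%. The largest shared parts were 77.8% of the exon bases of Mrps34, with 2 genes of which Mapk8ip3 shared most, and 69.8% of those of Mrps25, so the values of these 2 genes are uncertain. Processed pseudogenes of the family, 5 in number, had mean levels from 0 to 0.965 FPKM, the highest being Mrpl23-ps1.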
